A study of Mus musculus with 8 samples.

Results

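The semaphorin, plexin, neuropilin, Eph, ephrin, Slit, Robo, netrin and Unc5 genes were followed on 8 arrays of 2 mouse cell lines. The members were all probe sets whose single annotated symbol belongs to one of these families: Sema3 to Sema7, Plxna to Plxnd, Nrp1 and Nrp2, Epha and Ephb, Efna and Efnb, Slit1 to Slit3, Robo1 to Robo4, Ntn1 to Ntn5, and Unc5a to Unc5d. The rule found 148 probe sets for 67 genes, among 45101 probe sets in all, of which 34958 carry 1 symbol. The study measured RNA in NIH3T3, a mouse embryonic fibroblast line, and in B16F10, a mouse melanoma line, each with forced expression of PGC7 (also Stella, gene symbol Dppa3), a maternal factor of the early embryo, and asked which transcripts differ from control cells. The groups are 3 NIH3T3 PGC7 cultures (clone 1, clone 2 and an uncloned mixture), 1 NIH3T3 control, 3 B16F10 PGC7 clones (clones 1 to 3) and 1 B16F10 control.

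Cells were exposed overnight to virus-containing supernatant with polybrene; the labels do not say what virus, if any, the controls saw. Each clone grew from 1 cell, the uncloned culture pools many, and each control is a single array, so its spread was not measured. A clone's own difference and the difference between PGC7 and control cells cannot be told apart for any single clone. The groups, and which cultures are clones, rest on the titles and the study's design text, because the genotype field of all 6 PGC7 samples names PGC8 and calls the cells pre-cloned. The Dppa3 probe set read 101, 29.7 and 55.4 on the NIH3T3 PGC7 arrays (uncloned, clone 1, clone 2), against 69.8 on the NIH3T3 control, and the difference was not called (log2 change -0.28, adjusted p = 0.802). It read 70.0, 117 and 71.0 on the B16F10 PGC7 arrays, against 23.5 on the B16F10 control (log2 change 1.51, adjusted p = 0.27, limma). Nothing in the labels tells whether its probes cover the sequence carried by the virus, so the arrays are named by their labels alone.

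The lines were checked against 8 fibroblast and 8 melanocyte markers. The summed fibroblast signal was 79254 to 87947 in NIH3T3 PGC7 and 118044 in NIH3T3 control, and 554 to 855 in B16F10 PGC7 and 660 in B16F10 control. The summed melanocyte signal was 641 to 790 in NIH3T3 PGC7 and 880 in NIH3T3 control, and 125575 to 144878 in B16F10 PGC7 and 111108 in B16F10 control. Signals are deposited MAS5 intensities in arbitrary units, with every array brought to a trimmed mean of 500, and a log2 change is on the log2(signal + 9) scale, which understates changes of dim probe sets. Counts of probe sets at least 2-fold higher or lower are on the same scale. A change is called where limma's adjusted p, over 25236 probe sets tested, is under 0.05. After the filter on low values, 92 member probe sets for 49 genes were tested.

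Guidance cues are extracellular proteins that steer growing axons and migrating cells, and most are also used outside the nervous system. Semaphorins signal through plexins, and the secreted class 3 semaphorins mostly need a neuropilin as a co-receptor. Eph receptors are tyrosine kinases that read ephrins on neighbouring cells, Slits bind Robo receptors, and netrins bind Unc5 receptors and Dcc. The outcome in these pathways is a change in the actin cytoskeleton and in adhesion.

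The promoters of 6 genes with large changes in NIH3T3, described in the paragraphs on their families, are shown to let their sequence composition be read beside their values. They are the 250 bases before the annotated start, from RefSeq on GRCm38.p6, written 5′ to 3′ on the gene's strand with each CG dinucleotide in capitals.
Sema7a (chr9:57939862-57940111, plus strand): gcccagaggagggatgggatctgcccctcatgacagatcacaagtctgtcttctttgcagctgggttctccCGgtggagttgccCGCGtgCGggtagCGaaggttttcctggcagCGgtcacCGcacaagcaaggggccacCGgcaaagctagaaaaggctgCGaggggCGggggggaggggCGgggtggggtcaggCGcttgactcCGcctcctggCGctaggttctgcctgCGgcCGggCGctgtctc
Sema5a (chr15:32244563-32244812, plus strand): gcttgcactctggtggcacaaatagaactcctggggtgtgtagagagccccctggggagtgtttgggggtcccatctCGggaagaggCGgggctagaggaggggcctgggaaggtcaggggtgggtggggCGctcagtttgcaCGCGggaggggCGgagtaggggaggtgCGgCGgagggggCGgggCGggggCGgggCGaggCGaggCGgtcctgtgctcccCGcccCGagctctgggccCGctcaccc
Unc5b (chr10:60831582-60831831, minus strand): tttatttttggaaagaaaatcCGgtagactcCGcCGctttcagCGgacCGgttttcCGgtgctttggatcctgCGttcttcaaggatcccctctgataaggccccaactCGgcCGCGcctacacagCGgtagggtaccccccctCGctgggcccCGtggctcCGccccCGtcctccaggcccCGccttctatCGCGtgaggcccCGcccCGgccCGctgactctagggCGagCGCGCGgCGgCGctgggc
Nrp1 (chr8:128358823-128359072, plus strand): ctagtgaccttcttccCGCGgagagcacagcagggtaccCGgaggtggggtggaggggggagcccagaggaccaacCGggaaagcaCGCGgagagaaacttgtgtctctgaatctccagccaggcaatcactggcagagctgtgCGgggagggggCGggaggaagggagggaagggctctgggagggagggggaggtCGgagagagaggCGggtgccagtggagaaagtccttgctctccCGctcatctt
Slit3 (chr11:35121206-35121455, plus strand): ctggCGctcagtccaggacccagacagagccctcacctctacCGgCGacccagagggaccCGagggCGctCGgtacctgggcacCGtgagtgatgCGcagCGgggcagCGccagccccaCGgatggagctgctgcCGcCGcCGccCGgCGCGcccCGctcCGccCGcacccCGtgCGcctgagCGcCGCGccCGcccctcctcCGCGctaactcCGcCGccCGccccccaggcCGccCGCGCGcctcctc
Epha4 (chr1:77515089-77515338, minus strand): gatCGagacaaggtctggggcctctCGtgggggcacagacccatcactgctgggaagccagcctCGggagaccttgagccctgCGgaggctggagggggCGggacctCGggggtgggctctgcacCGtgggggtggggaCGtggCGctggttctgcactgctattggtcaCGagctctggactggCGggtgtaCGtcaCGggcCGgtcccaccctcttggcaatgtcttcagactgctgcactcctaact

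The 6 promoters hold 17 (Sema7a), 17 (Sema5a), 27 (Unc5b), 11 (Nrp1), 35 (Slit3) and 14 (Epha4) CG dinucleotides. Over all 32851 promoters of this length the median was 6, and over the 74 promoters of 58 of the 67 member genes it was 15. At least 1 CG was present in 92.1% of all promoters and in 98.6% of the members' promoters. The letters GGGCGG, the GC box, were searched on both strands and overlap with CG by construction. They occurred 2 times in the Sema7a window, 5 times for Sema5a, 2 times for Unc5b, 1 time for Nrp1, 6 times for Slit3 and 1 time for Epha4. They were found in 32.7% of all promoters and in 71.6% of the members' promoters. All 6 windows, those of genes that rose and of genes that fell, held more CG than the median of all promoters, and the arrays carry no methylation measurement.

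In NIH3T3, semaphorins 4b, 4c, 5a and 7a, the receptors Plxna4, Epha7 and Unc5b, and 1 of 2 probe sets of Unc5c rose in PGC7 cells, while Nrp1, Plxnb2, Slit3 and the other Unc5c probe set fell. In all, 21 of 92 member probe sets (22.8%) were called, against 12.8% of all probe sets tested. Of these, 14 in 8 genes were higher (15.2%, against 6.47% of all tested) and 7 in 4 genes were lower (7.61%, against 6.32%). The filter averages 3 PGC7 arrays and 1 control per line. A gene high only in the control is therefore removed more readily than one high only in PGC7. With no filter, 23 of 148 member probe sets were called, 11 of them lower (7.43%, against 3.14% of all). The lean toward rises thus depended on the filter. The median log2 change over the 148 member probe sets without a filter was -0.05, as over all probe sets (-0.05), and the median size of the change was 0.73 for members against 0.43 for all. Over the tested probe sets the medians were 0.04 for members and -0.07 for all, and the median sizes 0.76 and 0.38. In these bulk samples, fewer cells of a type and less RNA per cell cannot be told apart. Of the 8 fibroblast markers, 2 were called lower in NIH3T3 PGC7 cultures (Col1a1, log2 change -5.50, and Lum, -2.69), 0 higher and 6 not at all, among them Col3a1 (0.12), Dcn (0.41) and Pdgfra (-0.06). Among tested markers of other cells, 1 of 4 macrophage markers (Cd14, 1.92, adjusted p = 0.0128) and 1 of 4 neuron markers (Snap25, 2.28, adjusted p = 0.0141) were called higher, and 1 of 8 melanocyte markers (Tyrp1, -2.27) and 1 of 3 Schwann cell markers (S100b, -1.19) lower. The summed macrophage signal was 889 to 1116 in NIH3T3 PGC7 and 545 in NIH3T3 control, and the summed neuron signal 329 to 420.3 in NIH3T3 PGC7 and 227 in NIH3T3 control. Among the listed markers, Adgre1 (macrophage) and Rbfox3 (neuron) did not exceed 60.2 and 92.9 on any NIH3T3 array. Snap25 had 246, 228 and 165 in NIH3T3 PGC7 against 36.1 in NIH3T3 control, and the other neuron markers did not rise with it. Map2 changed by -0.52, Rbfox3 by -0.62 and Tubb3 by 0.01, all uncalled. The untested Nefl, Stmn2 and Syt1 changed by -0.21, -0.60 and 0.31. Other macrophage markers ran both ways. Ptprc had 74.8, 231 and 175 in NIH3T3 PGC7 against 60.6 in NIH3T3 control (log2 change 1.15, adjusted p = 0.346, limma). Cd68 changed by 0.999 (adjusted p = 0.164), Csf1r by -0.15 and Lyz2, which was not tested, by -1.49. The other Schwann cell markers also ran both ways, uncalled. Mbp had 85.2, 38.6 and 32.2 in NIH3T3 PGC7 against 12.5 in NIH3T3 control (log2 change 1.41, adjusted p = 0.0512, limma), and Gfap changed by -0.26. The part of all these markers in the result was not tested.

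**Figure D1:**
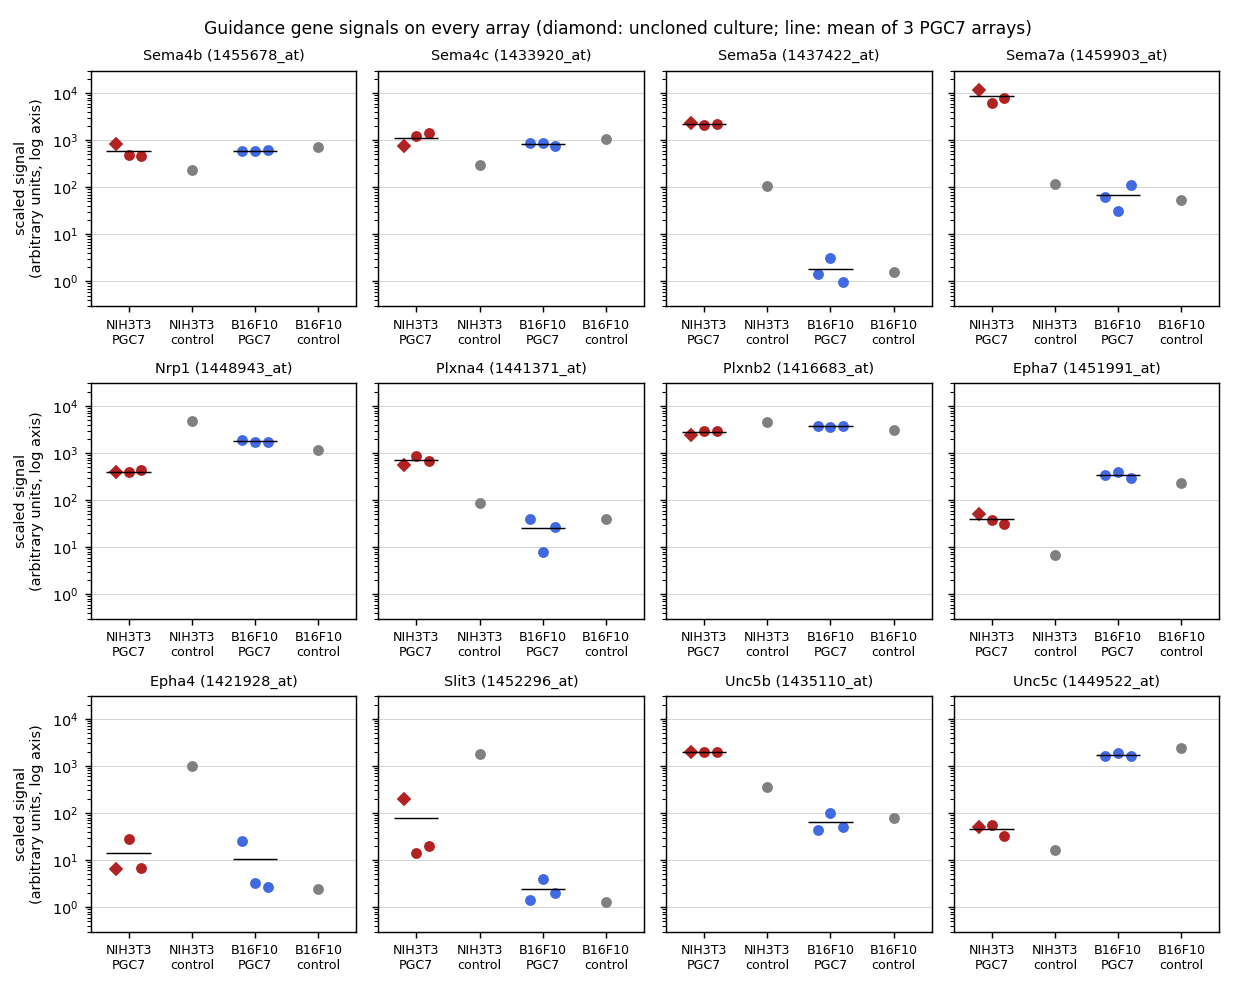
Scaled signal (log axis, arbitrary units) of 12 guidance genes on each of the 8 arrays; a diamond is the uncloned NIH3T3 culture, circles are clones or controls, and a line is the mean of 3 PGC7 arrays. Sema7a sits between 6173 and 11368 on the NIH3T3 PGC7 arrays against 118 on the NIH3T3 control, and Nrp1 between 389.5 and 429 against 4798.

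Semaphorins, the largest family tested, had the most genes called higher in NIH3T3. Of 19 tested genes 4 rose, at 7 of 32 probe sets, and none was called lower (1 probe set at an unadjusted p under 0.05). Called higher were 15.2% of tested member probe sets and 6.47% of all probe sets tested. The Unc5 receptors had 3 of 4 tested probe sets called higher and 1 lower. Sema7a, a membrane-anchored semaphorin that binds plexin C1 and integrins, had 11368, 6173 and 7965 in NIH3T3 PGC7 (uncloned, clone 1, clone 2; mean 8502 ± 2639, SD, n = 3), against 118 in NIH3T3 control. All 3 cultures stood far above the control, with a log2 change of 6.03 ± 0.53 (SE; adjusted p = 0.000384, limma). Its other probe set gave 728, 437 and 399 in PGC7 against 2.84 in control, a log2 change of 5.43 ± 0.47 (adjusted p = 0.000368).

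Sema5a, a transmembrane semaphorin with thrombospondin repeats, had 2335, 2071 and 2193 in NIH3T3 PGC7 (2199.8 ± 132, SD, n = 3), against 104 in NIH3T3 control. The 3 cultures lay close together and above the control, with a log2 change of 4.29 ± 0.31 (adjusted p = 0.000188, limma). Probe sets 1434776_at and 1422167_at of Sema5a also rose, by 4.08 ± 0.35 and 2.57 ± 0.50 on the log2 scale. The fourth, 1459109_at, was below the filter on low values, at 26.4, 23.9 and 1.32 in PGC7 against 22.0 in control, and did not move with the other probe sets.

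Sema4c, a membrane-bound semaphorin that binds plexin B2, had 759, 1199 and 1429 in NIH3T3 PGC7 (1129 ± 341, SD, n = 3), against 297 in NIH3T3 control. All PGC7 cultures were above the control, the uncloned one least, with a log2 change of 1.85 ± 0.30 (adjusted p = 0.00632, limma). Sema4b, a related membrane-bound semaphorin, had 848, 494 and 450.4 in NIH3T3 PGC7 (597 ± 218, SD, n = 3), against 229 in NIH3T3 control. Its log2 change was 1.29 ± 0.32 (adjusted p = 0.0324, limma), and the call was lost when any B16F10 clone was left out of the shared fit (adjusted p 0.062 to 0.0657). Its second probe set, 1427586_at, had 183, 93.9 and 67.5 in PGC7 against 25.3 in control and was not called (log2 change 1.74, adjusted p = 0.147).

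The secreted class 3 semaphorins gave no call. Sema3a, the collapsing factor of growth cones, had 2017, 954 and 933 in NIH3T3 PGC7 against 1881 in NIH3T3 control (log2 change -0.63, adjusted p = 0.425), so that the uncloned culture was above the control and both clones below it. Sema3f had 1026, 782 and 1554 in NIH3T3 PGC7 against 1865 in NIH3T3 control (log2 change -0.79, adjusted p = 0.248). Sema3c had 267 in the uncloned culture, 2.50 in clone 1 and 14.4 in clone 2, against 143 in NIH3T3 control, and the cultures fell on both sides of the control (log2 change -1.85 ± 1.38, adjusted p = 0.423). Sema3b, Sema3e and Sema3g were also tested and lay within 0.44 log2 units of the control at their brightest probe sets, while Sema3d was not tested.

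Among the other semaphorins, 2 had all 3 NIH3T3 PGC7 cultures at least 2-fold above the control at the brightest probe set without a call. Sema4g had 533, 168 and 182 in PGC7 against 75.4 in control (log2 change 1.64 ± 0.61, adjusted p = 0.115). Sema6a, a membrane-bound semaphorin that binds A-type plexins, had 22.0, 46.3 and 78.9 in PGC7 against 4.56 in control (log2 change 1.97 ± 0.55, adjusted p = 0.0516). The other Sema6a probe sets, 1421414_a_at and 1425903_at, were below the filter and moved the other way (log2 changes -0.96 and -1.43). Sema4g and Sema6a both missed the threshold, and with a single control array no weight is given to the position of the cultures above it.

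Of the semaphorin receptors, Nrp1 fell and Plxna4 rose in NIH3T3. Nrp1, the co-receptor of class 3 semaphorins and of vascular endothelial growth factor, had 392, 389.5 and 429 in NIH3T3 PGC7 (403 ± 22.0, SD, n = 3), against 4798 in NIH3T3 control. The 3 cultures were nearly equal and far below the control, with a log2 change of -3.54 ± 0.14 (adjusted p = 1.45e-05, limma). All 4 Nrp1 probe sets were called lower, and the others, 1418084_at, 1448944_at and 1457198_at, changed by -3.52, -3.63 and -2.98. Nrp2, the co-receptor of Sema3c and Sema3f, had 268, 801 and 1049.5 in NIH3T3 PGC7 against 475 in NIH3T3 control, with the uncloned culture below the control and both clones above it (log2 change 0.35 ± 0.59, adjusted p = 0.742).

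Plxna4, a plexin that pairs with neuropilins for class 3 semaphorins, had 566, 855 and 678 in NIH3T3 PGC7 (699.6 ± 146, SD, n = 3), against 88.5 in NIH3T3 control. All 3 cultures were above the control, with a log2 change of 2.84 ± 0.55 (adjusted p = 0.0125, limma). Its probe set 1457840_at had 515, 335 and 395 in PGC7 against 9.09 in control and also rose (log2 change 4.53 ± 0.75, adjusted p = 0.00661). Plxnb2, the receptor of Sema4c, had 2440.2, 2901 and 2880.2 in NIH3T3 PGC7 (2741 ± 260.3, SD, n = 3), against 4576 in NIH3T3 control. It fell by 0.74 on the log2 scale (SE 0.13, adjusted p = 0.00916, limma), and lost the call when arrays were scaled to their spike-in controls (log2 change -0.40, adjusted p = 0.302).

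The other plexins were not called in NIH3T3. Plxna2 had 4 probe sets, all higher in PGC7 by 0.96 to 1.75 log2 units, with adjusted p between 0.0734 and 0.171, and its brightest had 451, 882 and 832 in PGC7 against 255 in control. Plxna1 had 1059.5, 1407 and 1651 in PGC7 against 1853 in control (log2 change -0.45, adjusted p = 0.199). Plxnd1, the receptor of Sema3e, had 648, 1197 and 1097 in PGC7 against 1216 in control (log2 change -0.36, adjusted p = 0.474). All cultures of both genes were below the control, yet by less than the fit could call. Plxnc1, the receptor of Sema7a, was low in this line, at 10.0, 19.5 and 14.1 in PGC7 against 18.7 in control.

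**Figure D2:**
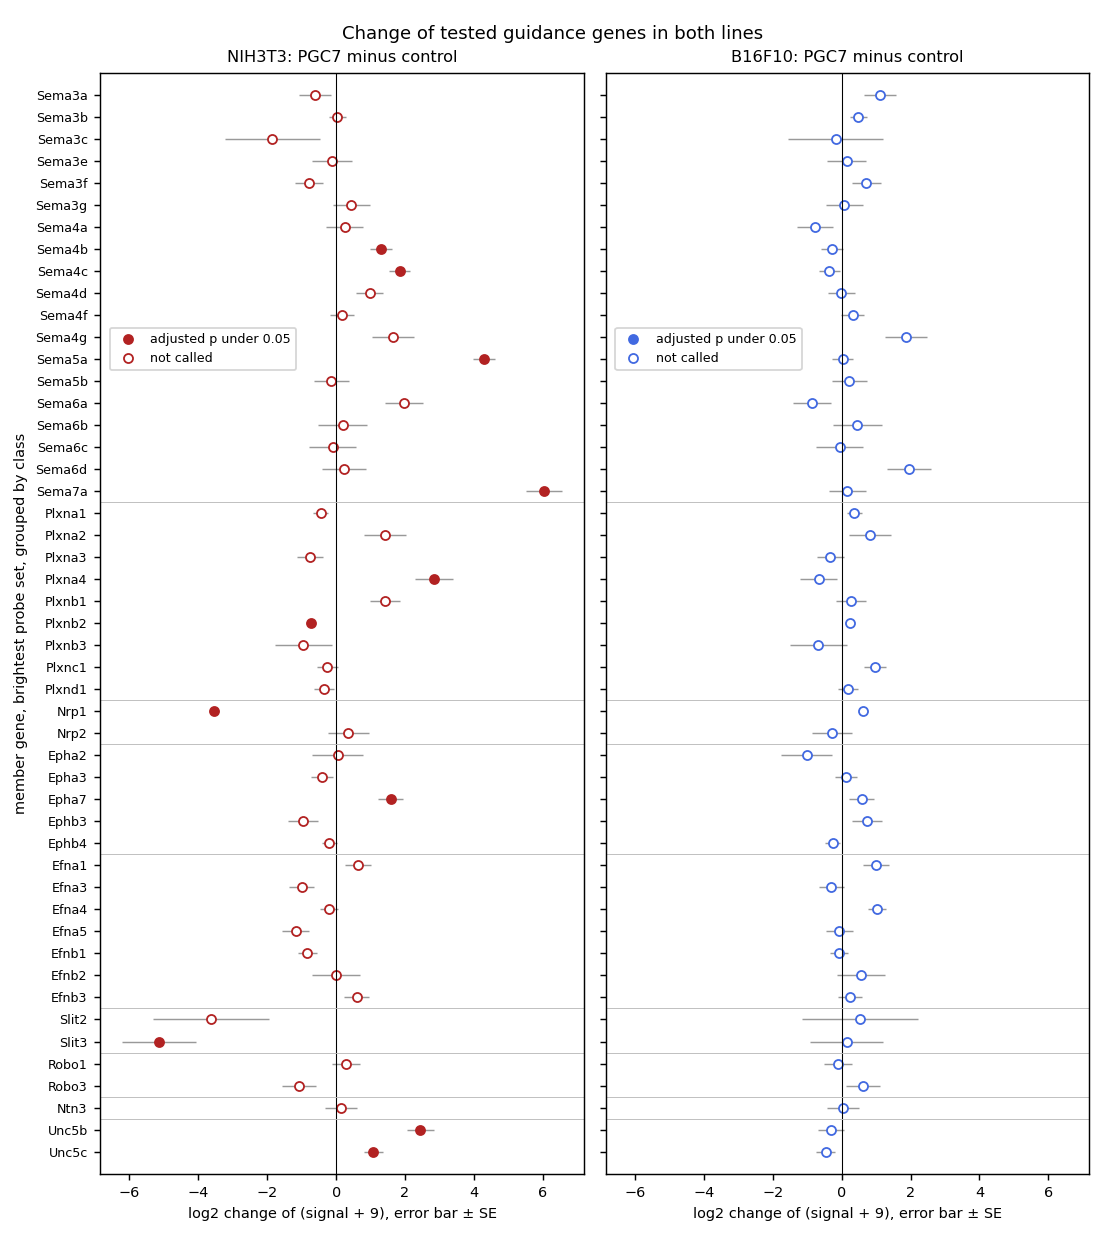
Log2 change of (signal + 9), PGC7 minus control, with its SE, for the brightest probe set of each of the 49 tested member genes in NIH3T3 (left) and B16F10 (right); filled points have an adjusted p under 0.05. Filled points in NIH3T3 run from -5.14 for Slit3 to 6.03 for Sema7a, and no point is filled in B16F10.

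In the Eph and ephrin families, 1 of 5 tested Eph receptor genes was called higher in NIH3T3 and 0 of 7 tested ephrins were called. By probe set, 2 of 10 for Eph receptors and 0 of 15 for ephrins were called, against 12.8% of all tested. With 15 probe sets, no lack of calls is claimed for the ephrins. At an unadjusted p under 0.05, 4 of 15 ephrin probe sets were lower and 0 higher, where 36 of 92 over all members (39.1%) and 28.8% of all tested passed. Epha7 had 51.2, 37.4 and 30.4 in NIH3T3 PGC7 (39.6 ± 10.6, SD, n = 3), against 6.96 in NIH3T3 control. It rose by 1.59 ± 0.36 on the log2 scale (adjusted p = 0.0239, limma) from a signal near the floor of the array, and lost the call without B16F10 clone 1 (adjusted p = 0.0599). Epha7 probe set 1443485_at also rose (32.6, 76.9 and 62.9 against 2.26, log2 change 2.50, adjusted p = 0.0117). Its probe set 1427528_a_at was not called (77.0, 99.0 and 162 against 72.0, log2 change 0.53), and 1452380_at was not tested.

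Epha4, a receptor that binds both A-type and B-type ephrins, was removed by the filter because it is low on 3 of the 4 NIH3T3 arrays and on all B16F10 arrays, and it is described here after its values were seen. Its probe set 1421928_at had 6.50, 28.4 and 6.89 in NIH3T3 PGC7 (13.9 ± 12.5, SD, n = 3), against 1008 in NIH3T3 control. Probe set 1421929_at of Epha4 had 11.0, 11.5 and 28.5 in PGC7 against 501 in control, and 1429021_at had 0.764, 2.32 and 0.538 in PGC7 against 744 in control. In a fit with no filter, 4 of its 5 probe sets were called lower, with log2 changes of -5.60, -4.36, -6.21 and -4.38 (adjusted p = 0.00539, 0.00971, 0.000973 and 0.00965, limma). They are 4 of the 11 member probe sets called lower in that fit (7.43% of 148, against 3.14% of all 45037).

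The bright ephrins and Eph receptors of NIH3T3 were not called. Efnb2, a transmembrane ephrin, had 2442, 1289.8 and 1241 in PGC7 against 1593 in control, on both sides of it (log2 change -0.02, adjusted p = 0.992). Ephb3, a receptor of B-type ephrins, had 763, 939.9 and 876 in PGC7 against 1662 in control (log2 change -0.95, adjusted p = 0.193). Efna5, a membrane-anchored ephrin, had 1155, 489.9 and 564 in PGC7 against 1558 in control (log2 change -1.18, adjusted p = 0.0883). For Ephb3 and Efna5 all 3 cultures were below the control. Epha3 was at most 10.6 on any NIH3T3 array.

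In the Slit and Robo family, Slit3 fell, 1 of 2 tested Slits, and neither tested Robo was called (0 also at an unadjusted p under 0.05). Slit3, a secreted ligand of Robo receptors, had 196 in the uncloned culture, 14.0 in clone 1 and 19.8 in clone 2 (mean 76.6 ± 103, SD, n = 3), against 1808 in NIH3T3 control. All 3 cultures were below the control, the uncloned one less so, with a log2 change of -5.14 ± 1.06 (adjusted p = 0.017, limma). Slit2 had 829, 246 and 6.27 in PGC7 against 1817 in control, so that all cultures were below the control but spread widely (log2 change -3.62 ± 1.68, adjusted p = 0.198). The Slit2 probe sets 1451430_at and 1458140_at, both below the filter, were also at least 2-fold below the control in all 3 cultures (log2 changes -1.94 and -2.33). Robo1 was at most 9.01 on any NIH3T3 array at its brightest probe set, and Robo3 had 60.7, 47.6 and 25.5 in PGC7 against 99.0 in control (log2 change -1.07, adjusted p = 0.195).

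Of the netrin receptors, Unc5b rose at both probe sets. It had 1955, 1938 and 2018 in NIH3T3 PGC7 (1970.2 ± 42.0, SD, n = 3), against 355 in NIH3T3 control. The cultures were nearly equal, with a log2 change of 2.44 ± 0.39 (adjusted p = 0.00544, limma), and probe set 1453269_at gave 1202, 1165 and 1205 in PGC7 against 199 in control (log2 change 2.53, adjusted p = 0.00659). The 2 probe sets of Unc5c gave calls of opposite sign. Probe set 1449522_at of Unc5c had 50.4, 54.9 and 32.9 in PGC7 against 16.6 in control (log2 change 1.08 ± 0.28, adjusted p = 0.0379), and 1419592_at had 4.37, 4.59 and 6.80 in PGC7 against 31.3 in control (log2 change -1.50 ± 0.29, adjusted p = 0.0121). Both are dim in this line, and no direction is given for the gene. The first of these calls was lost without NIH3T3 clone 1 (adjusted p = 0.0657) and without any 1 of the B16F10 clones (0.0775 to 0.09). Ntn3, the tested netrin, had 77.5, 76.2 and 46.1 in PGC7 against 58.3 in control and was not called.

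**Figure D3:**
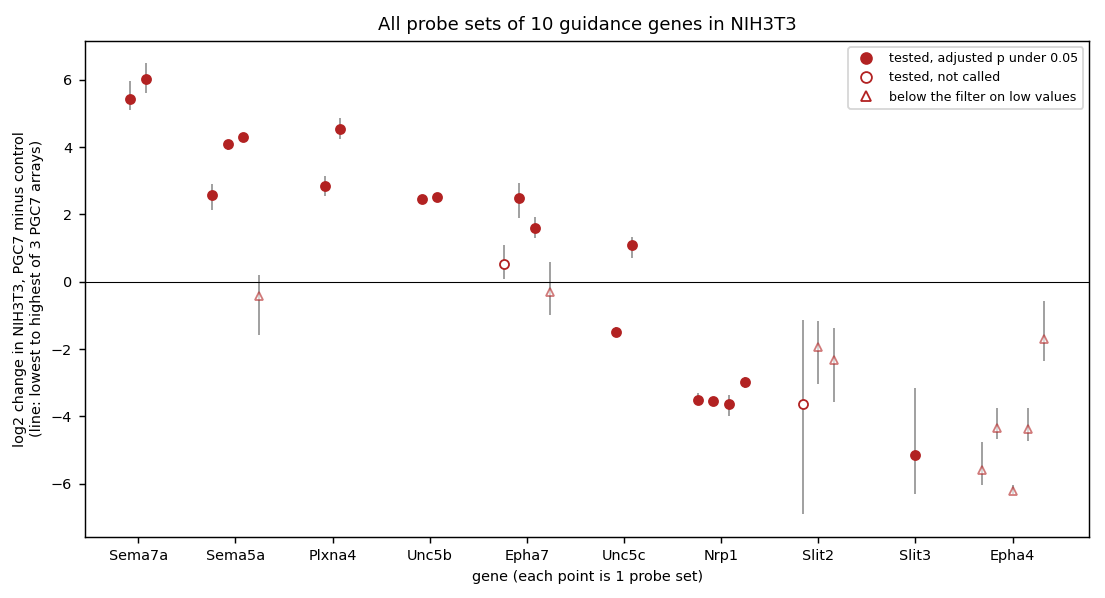
Log2 change in NIH3T3, PGC7 minus control, of every probe set of 10 guidance genes; the point is the mean over 3 PGC7 arrays and the line runs from the lowest to the highest array. The 4 Nrp1 probe sets lie together between -3.63 and -2.98, the 2 Unc5c probe sets lie on opposite sides of 0, and Slit2 has the longest range at its brightest probe set.

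The remaining tested genes, Efna1, Efna3, Efna4, Efnb1, Efnb3, Epha2, Ephb4, Plxna3, Plxnb1, Plxnb3, Sema4a, Sema4d, Sema4f, Sema5b, Sema6b, Sema6c and Sema6d, were not called in NIH3T3. Their log2 changes at the brightest probe set were at most 1.43 in size, that of Plxnb1, a receptor of Sema4d. Counted without a filter, 18 of 148 member probe sets (12.2%) were at least 2-fold higher in all 3 NIH3T3 PGC7 cultures, against 3.19% of all 45037 probe sets, and came from 12 genes. At least 2-fold lower in all 3 were 15 member probe sets (10.1%), against 5.25% of all, from 7 genes: Epha4, Ephb6, Nrp1, Sema3f, Slit2, Slit3 and Unc5c. Probe sets of 1 gene are not independent of each other, and Nrp1 and Epha4 give 4 each.

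In B16F10, 0 of 92 member probe sets were called in PGC7 clones against control, where 1.19% of all probe sets tested were called (limma, adjusted p under 0.05). At an unadjusted p under 0.05 there were 10 (10.9%), against 15.1% of all tested, and a constant variance prior also gave 0 calls. The count was 6 without the uncloned NIH3T3 array (Efna4, Nrp1, Sema4g and Sema6d) and 9 when the 4 B16F10 arrays were fitted alone (Nrp1, Plxna1, Plxnc1, Sema4g, Sema6d and Unc5c). Both counts lack the share over all probe sets in the same fit, so they cannot be told from a general rise in calls. The median log2 change over the 148 member probe sets was 0.13, against 0.04 over all. At least 2-fold higher in all 3 B16F10 PGC7 clones were 7 probe sets (4.73%, against 2.07% of all), from Epha1, Ephb6, Sema4d, Sema4g, Sema6a and Sema6d. For Sema6a this was 1421414_a_at (log2 change 1.72), while its brightest probe set changed by -0.85. For Sema4d it was 1434596_at (1.24), while its brightest probe set changed by -0.02. On the log2(signal + 9) scale, the Sema5a probe set 1459109_at was the 1 that was at least 2-fold lower in all 3 (0.676%, against 1.06% of all).

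The member probe sets with an unadjusted p under 0.05 in B16F10 were all higher in PGC7 clones under the main scaling. Scaling to spike-in controls shifted the median of all tested probe sets in B16F10 to -0.55 (log2), against 0.02 under the main scaling, and in NIH3T3 to 0.25, against -0.07. Nrp1 had 1857, 1743 and 1748 in B16F10 PGC7 clones 1 to 3 (1782 ± 64.4, SD, n = 3), against 1146 in B16F10 control (log2 change 0.63 ± 0.14, adjusted p = 0.0754, limma; 0.0134 with B16F10 arrays alone). Under spike-in scaling its change was 0.02. Sema6d, a membrane-bound semaphorin that binds plexin A1, had 389.8, 419.8 and 573 in PGC7 clones against 109.7 in control (log2 change 1.97 ± 0.64, adjusted p = 0.191). Sema4g had 220.2, 151 and 273 in PGC7 clones against 51.0 in control (log2 change 1.86 ± 0.61, adjusted p = 0.193). All 3 genes were uncalled in the main fit, and each was set against a single control array.

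Plxnc1 had 1036, 1067 and 1181 in B16F10 PGC7 clones against 554 in B16F10 control (log2 change 0.97 ± 0.31, adjusted p = 0.19, limma). Efna4, a membrane-anchored ephrin, had 139, 159.7 and 207 in PGC7 clones against 76.5 in control (log2 change 1.04 ± 0.26, adjusted p = 0.107). Unc5c, which is bright in this line, had 1626, 1859.8 and 1645 in PGC7 clones against 2351 in control, lower in 3 of 3 clones (log2 change -0.46 ± 0.28, adjusted p = 0.493). Its other probe set, 1419592_at, had 841, 879.8 and 933 in PGC7 clones against 1075 in control, also lower in all 3 (log2 change -0.28, adjusted p = 0.713).

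The bright members of B16F10 otherwise stayed near the control. Epha3, a receptor of A-type ephrins, had 5114, 4581 and 5555 in PGC7 clones against 4669 in control (log2 change 0.12, adjusted p = 0.904). Plxnd1 had 3909, 4352 and 3859 in PGC7 clones against 3554 in control (log2 change 0.18, adjusted p = 0.829). Nrp2 had 3862, 3858 and 3735 in PGC7 clones against 4641 in control (log2 change -0.28, adjusted p = 0.874). Plxna1 had 3700.1, 3532 and 3656 in PGC7 clones against 2813 in control (log2 change 0.37, adjusted p = 0.467), and Efna5 had 875, 808 and 787 in PGC7 clones against 863 in control. Sema3a, Sema3f, Ephb3 and Efnb2 stayed under 45 on every B16F10 array at their brightest probe sets.

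The change in NIH3T3 was then set against the change in B16F10 in the same fit. The difference was called at 13 of 92 member probe sets (14.1%), in 7 genes, against 6.88% of all tested, with 8 positive and 5 negative (17 and 6 of 23 under spike-in scaling). At an unadjusted p under 0.05 it was 31 of 92 (33.7%, against 22.7%), and without the uncloned NIH3T3 array 29 were called. Nrp1 was lower in NIH3T3 PGC7 and higher in B16F10 PGC7 than in the line's control on every array of its brightest probe set, and the change in NIH3T3 minus that in B16F10 was -4.18 ± 0.19 (log2; adjusted p = 8.95e-05). Its probe set 1457198_at was dim in B16F10, at 60.8, 38.5 and 77.5 in PGC7 clones against 81.8 in control, and the difference there was -2.52 (adjusted p = 0.0352).

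Sema7a had 61.2, 31.6 and 109.7 in B16F10 PGC7 clones against 53.0 in B16F10 control, and the difference of the changes was 5.86 ± 0.75 (adjusted p = 0.00449, limma). Sema5a had 1.45, 3.13 and 0.947 in B16F10 PGC7 clones against 1.57 in B16F10 control, with a difference of 4.26 ± 0.44 (adjusted p = 0.00206). Unc5b had 42.5, 102 and 50.2 in B16F10 PGC7 clones against 77.2 in B16F10 control, with a difference of 2.75 ± 0.54 (adjusted p = 0.0229, and 0.0529 without NIH3T3 clone 1 and 0.059 without B16F10 clone 3).

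Plxna4 had 40.1, 8.06 and 27.0 in B16F10 PGC7 clones against 40.4 in B16F10 control, and the difference of the changes was 3.51 ± 0.77 (adjusted p = 0.033, limma). It was not called without NIH3T3 clone 1 (0.0697), NIH3T3 clone 2 (0.0643) or B16F10 clone 3 (0.0685). Sema4c was read in both lines, with 869, 873 and 769 in B16F10 PGC7 clones against 1077 in B16F10 control, and its difference was 2.21 ± 0.43 (adjusted p = 0.0207). It was lost without any 1 of the B16F10 clones (0.0521 to 0.0602). Plxnb2 had 3681, 3508 and 3804 in B16F10 PGC7 clones against 3109 in B16F10 control, and its difference was -0.98 ± 0.19 (adjusted p = 0.0203, and 0.0646 and 0.0614 without B16F10 clones 1 and 3). Under spike-in scaling the Plxnb2 difference was -0.02 (adjusted p = 0.969). In the main fit, the difference was not called at Plxna4 probe set 1457840_at (3.83, adjusted p = 0.068) or Sema5a probe set 1422167_at (1.85, adjusted p = 0.164). Epha7, Sema4b, Slit3 and Unc5c were called in NIH3T3 but not in the difference, with differences of 1.00, 1.58, -5.29 and 1.54 and adjusted p of 0.285, 0.0741, 0.0746 and 0.0542. Their B16F10 signals ran from 302 to 398 in PGC7 clones against 226 in control for Epha7, from 581 to 622 against 731 for Sema4b and from 1.39 to 3.94 against 1.25 for Slit3.

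Between the lines themselves, most guidance genes differed. NIH3T3 minus B16F10, each the mean of its PGC7 and control level, was called at 78 of 92 member probe sets (84.8%), against 71.5% of all tested, with 42 higher (45.7%, against 42.0%) and 36 lower (39.1%, against 29.6%). With the values as deposited, 33 were higher and 48 lower. The filter keeps probe sets that are high in only 1 line, and a batch of arrays, if there was one per line, cannot be separated from the line. The 6 genes most above B16F10 in NIH3T3 were Sema3a (log2 difference 6.38 ± 0.33), Sema3f (6.07 ± 0.29), Ephb3 (6.07 ± 0.31), Efnb2 (5.83 ± 0.49), Sema5a (5.54 ± 0.22) and Plxna2 (5.03 ± 0.43). The 6 most below were Epha3 (-8.45 ± 0.22), Robo1 (-6.16 ± 0.28), Unc5c (-5.76 ± 0.20), Sema4f (-5.51 ± 0.24), Plxnc1 (-4.96 ± 0.22) and Sema6d (-3.83 ± 0.45), all 12 with an adjusted p of at most 8.27e-05 (limma).

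Robo1, the receptor of Slits, had 797, 773 and 758 in B16F10 PGC7 clones and 841 in B16F10 control. Slit3 was at most 3.94 on any B16F10 array, while Slit2 had 302, 420.0 and 281 in B16F10 PGC7 clones and 225 in B16F10 control. Sema3a averaged 1446 over the 4 NIH3T3 arrays and 14.6 over the 4 B16F10 arrays. Nrp2 averaged 648 over the NIH3T3 arrays and 4024 over the B16F10 arrays. Nrp1 was near equal in this comparison at its brightest probe set (log2 difference -0.03), which averages low PGC7 cultures and a high control in NIH3T3. The Sema5a difference of 5.54 likewise averages high PGC7 cultures and a lower control in NIH3T3.

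**Figure D4:**
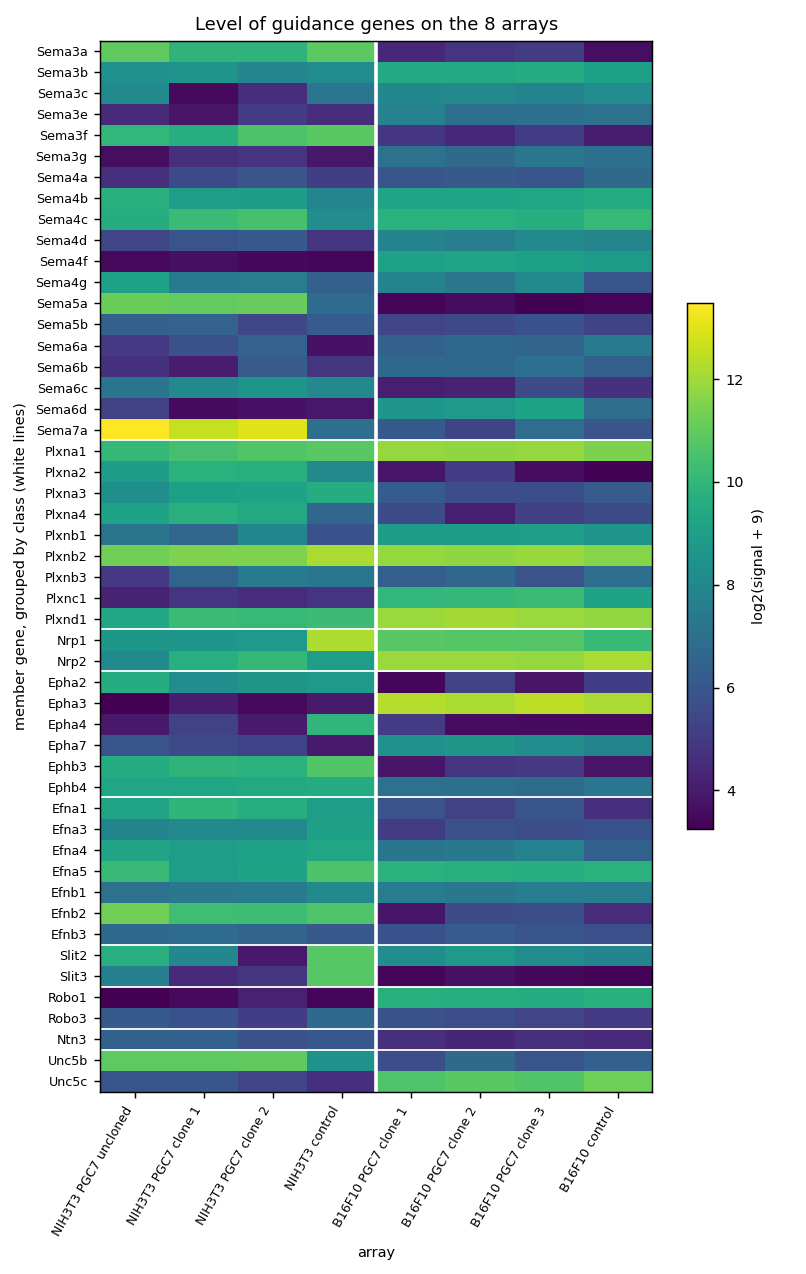
Level, as log2(signal + 9) by colour, of the 49 tested member genes and Epha4 on the 8 arrays, with families separated by white lines and the lines by a vertical one; Epha4 is shown at probe set 1421928_at, the others at their brightest. Sema7a, Sema5a and Unc5b are light in the 3 NIH3T3 PGC7 columns, Nrp1, Slit3 and Epha4 in the NIH3T3 control column, and Epha3, Robo1 and Unc5c in the 4 B16F10 columns.

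The 18 untested genes were low on nearly all arrays. For 12 of them, Efna2, Epha5, Epha6, Epha8, Epha10, Ephb1, Ntn4, Ntn5, Robo2, Slit1, Unc5a and Unc5d, no probe set passed 49.3, the median of all values, on any array. The others besides Epha4 reached at most 53.2 (Epha1), 64.8 (Ephb6), 80.5 (Ntn1), 60.4 (Robo4) and 56.3 (Sema3d).

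The genes that carry these signals onward were taken from a textbook list of 62 co-receptors and transducers, of which 54 were tested at their brightest probe set. In NIH3T3, 13 rose (24.1%, against 6.47% of all probe sets tested) and 2 fell (3.70%, against 6.32%) in PGC7 cultures. The list was chosen with earlier results of these data known. It takes 1 brightest probe set per gene, while the share is over all tested probe sets, so no excess is claimed. Ngef, the exchange factor ephexin that acts downstream of Epha4, had 8033, 7029 and 6985 in NIH3T3 PGC7 against 142 in NIH3T3 control (log2 change 5.60 ± 0.53, adjusted p = 0.000542, limma). Flrt3, a ligand of Unc5b, had 1166, 2542 and 1954 in PGC7 against 135 in control (log2 change 3.65 ± 0.38, adjusted p = 0.000767). Nrcam, a cell adhesion molecule that forms complexes with Nrp2, had 266, 195 and 205 in PGC7 against 3.28 in control (log2 change 4.22 ± 0.20, adjusted p = 3.27e-05). All 3 genes were far above the control in every culture.

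Gpc1, a heparan sulphate proteoglycan that binds Slits, had 7899, 8020.4 and 8259.8 in NIH3T3 PGC7 against 1659 in NIH3T3 control (log2 change 2.27 ± 0.10, adjusted p = 2.82e-05, limma). Srgap3, a signalling protein of the Slit and Robo pathway, fell, with 38.3, 42.6 and 21.0 in PGC7 against 720.4 in control (log2 change -4.12 ± 0.54, adjusted p = 0.00234). Enah, an actin regulator of the Ena/VASP family, also fell (3332, 1629.5 and 1129.8 against 6345, log2 change -1.79, adjusted p = 0.0366), while its relative Vasp rose (3849, 3056 and 3389.9 against 2262, log2 change 0.59, adjusted p = 0.0375). The other genes that rose were Abl2, Cfl1, Dock1, Limk1, Nck2, Rasa1, Rgmb and Sdcbp, with log2 changes of 0.42 (Cfl1) to 1.85 (Nck2). In B16F10 only Met, the receptor tyrosine kinase that associates with plexins of the B class, was called among the 54 (1.85%, against 1.19% of all tested), with 6565, 6231 and 7616 in PGC7 clones against 3300.2 in control (log2 change 1.04 ± 0.16, adjusted p = 0.0228).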

How the data were processed

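Total RNA of 8 cultures was measured on Affymetrix mouse arrays; the deposited values are MAS5 signal intensities, per the submitters' processing notes, which give no version. The trimmed means of the deposited columns were 143 to 189 in NIH3T3 and 500 in B16F10, so each column was scaled to a trimmed mean of 500 (2% trimmed at each end). Values were taken as log2(signal + 9). Of 45101 probe sets, 64 controls were dropped and 19801 whose mean was under the median of all values in both lines were removed, leaving 25236. Symbols came from GEO's platform annotation: 34958 probe sets have 1 symbol, 932 several and 9211 none.

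A model with 4 group means was fitted across all genes with limma 3.58.1 in R 4.3.3 (intensity-dependent prior, two-sided, Benjamini-Hochberg, 8.5 degrees of freedom per probe set). Each lone control is assumed to vary like the PGC7 arrays. Nothing says that cultures were grown independently beyond the clones, so p-values measure the spread between these samples. The title of the uncloned NIH3T3 culture reads pre cloning. The NIH3T3 clones may therefore have been picked from it, and these cultures may not be independent. A gene is shown at its brightest probe set, and its others where called or opposed. Named were genes called in either line or in the difference, uncalled genes over 1000 on any array, the 6 genes at each end of the line difference, low genes, and listed transducers that were called; genes near a call were added after their values were seen. Members and lists were chosen with earlier results of these data known. Arrays give intensity, not counts, so their number limits the precision. The fit was tested on simulated data. Alternatives changed the scaling, pseudocount, filter, prior and arrays used. Same-numbered clones of the 2 lines did not deviate together (correlations 0.00917 and -0.0972), so the number does not pair them. Spike-in probe sets, read relative to each line's control, differed by -0.50 to -0.23 (log2) in NIH3T3 PGC7 and 0.45 to 0.79 in B16F10 PGC7.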

Additional observations from a re-analysis of the deposited data

Results flagged for a closer look

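For 7 guidance genes the change in NIH3T3 differed from the change in B16F10 by limma's test of the difference itself. On the log2 scale, the NIH3T3 change minus the B16F10 change was 5.86 for Sema7a (adjusted p = 0.00449), 4.26 for Sema5a (0.00206), 3.51 for Plxna4 (0.033), 2.75 for Unc5b (0.0229) and 2.21 for Sema4c (0.0207). It was -4.18 for Nrp1 (8.95e-05) and -0.98 for Plxnb2 (0.0203). These are the brightest probe sets. The difference was not called at Plxna4 probe set 1457840_at (3.83, adjusted p = 0.068) or Sema5a probe set 1422167_at (1.85, adjusted p = 0.164). No change of these genes in B16F10 was called. Under spike-in scaling the B16F10 change of Nrp1 was 0.02 and that of Plxnb2 -0.38. The other Plxna4 probe set, 1457840_at, and the Nrp1 probe set 1457198_at changed to the same side in both lines (4.53 in NIH3T3 and 0.69 in B16F10, and -2.98 in NIH3T3 and -0.46 in B16F10). No group here has over 3 arrays, so no array was tested for standing apart.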

How the results depend on the processing

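Each setting was changed alone. Except for the filter on group means, counts are given here without the share over all probe sets in the same fit. No excess of members is therefore claimed from them. In NIH3T3, no filter gave 23 calls among 148 member probe sets, 11 of them lower. In NIH3T3 (21 member probe sets called, 14 higher and 7 lower), spike-in scaling gave 30 (22 higher and 8 lower), a pseudocount of 50 gave 28, a stricter filter and the 4 NIH3T3 arrays alone each gave 13, and leaving out 1 array gave 18 to 31. A filter on group means, chosen after seeing the data, gave 27 of 105 (25.7%, against 3343 of 27814 over all), but a member that passes it through the 1 group where it is high had to differ, so these calls support nothing. In B16F10 (0 called), spike-in scaling and a pseudocount of 50 each gave 1, the 4 B16F10 arrays alone gave 9, and leaving out 1 array gave 0 to 6, the 6 without the uncloned NIH3T3 array. For the difference (13 called), spike-in scaling gave 23, a pseudocount of 50 gave 20 and a constant variance prior 8, and leaving out 1 array gave 10 to 29, the 29 without the uncloned NIH3T3 array. For the line difference (78 called), the stricter filter gave 37, having fewer probe sets to test, and leaving out 1 array gave 76 to 83. With clones 1 and 2 of each line and a replicate block, the line difference gave 76; the paired fit can give no PGC7 effect, since the numbers pair clones across lines. The cause of the other shifts was not tested. Of the NIH3T3 changes of named genes, 148 kept their side of the threshold, 25 lost the call and 0 turned. Nrp1, Sema5a, Sema7a and Unc5b kept it in 16 of 16 alternatives, Plxna4 in 15 of 15, Sema4c in 15 of 16, Slit3 in 14 of 15, Plxnb2 in 13 of 16, Epha7 in 10 of 15, Sema4b in 10 of 16 and Unc5c in 7 of 16. In B16F10, uncalled changes turned sign under spike-in scaling for Epha7 (-0.0122), Plxnb2 (-0.38), Sema5a (-0.0463) and Sema7a (-0.35). Leaving out 1 array, they ran from -0.0523 (without B16F10 clone 2) to 0.0911 for Sema5a and from -0.217 (without B16F10 clone 3) to 0.558 for Sema7a. The controls are single arrays and could not be left out, and low signals near the floor limit the dim members.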

Other observations

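The uncloned NIH3T3 culture differed from both clones at several guidance genes, which are given as values since no test compares 1 array with 2. Sema3c had 267 there, against 2.50 and 14.4 in clones 1 and 2. Slit2 had 829 there, against 246 and 6.27, and Slit3 196, against 14.0 and 19.8. Nrp2 ran the other way, at 268 in the uncloned culture against 801 and 1049.5 in the clones. The members on the X chromosome, Efnb1, Plxna3 and Plxnb3, were lowest of the NIH3T3 PGC7 cultures in the uncloned one at their brightest probe sets: 129 against 149 and 165 for Efnb1, 315 against 506 and 557 for Plxna3, and 21.5 against 85.4 and 168 for Plxnb3. Over 354 genes on the X chromosome, the median log2 change from the NIH3T3 control was -0.77 in the uncloned culture and -0.22 and -0.25 in clones 1 and 2, while over 11241 other genes it was -0.02, -0.04 and -0.02.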
